A study of Mus musculus with 12 samples.

Results

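The *Mage* genes described here are *Maged1*, *Maged2*, *Mageh1* and *Magee1*, the 4 X‐linked genes of the MAGE family that were named for this report. They were taken by their symbols from the count files, in which they are 4 of 24627 genes. RNA‐seq was performed on J1 cells, male mouse ES cells with 1 X chromosome, in which doxycycline (DOX) switches on *Xist* from its own locus through a tetracycline‐inducible promoter (*Xist*‐TetOP). All cells were collected at day 2 of differentiation, which was started by removing LIF. The comparisons asked how each line's X‐linked genes responded to the *Xist* RNA that it made.

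The 6 groups had 2 replicates each. The *Xist* FL line makes the full‐length RNA and was grown without DOX (noDOX) or with 1.5 µg/ml DOX. *Xist* ΔA lacks the A repeat and *Xist* ΔB+C lacks the B and C repeats, and each was also grown in both conditions. All 3 lines carry the inducible promoter. *Xist* ΔA is an older line and *Xist* ΔB+C is a clone edited from *Xist* FL. With 1 clone per line, the effect of a deletion and that of a clone cannot be told apart. The study describes the replicates as biological duplicates, and p‐values measure the spread between these libraries.

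MAGE proteins share a MAGE homology domain, and many of them bind a RING‐type E3 ubiquitin ligase and change what it acts on. One class of the family, the cancer‐testis genes such as *Magea* and *Mageb*, is mostly silent outside the germline, while the class that holds *Maged*, *Magee*, *Mageh1* and the necdin relatives is expressed in many tissues. During X inactivation *Xist* RNA spreads along the chromosome it comes from and its genes are silenced, a process for which the A repeat is known to be needed. The B and C repeats are known for their part in bringing Polycomb complexes to the chromosome.

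The promoters of the 4 genes are shown because 3 of them moved together in the data that follow, and because CpG content is the feature in which they can be compared. Each is a 300‐base window, most of it upstream, around a RefSeq transcript start (GRCm38.p6, the mm10 assembly) and is written 5′ to 3′ on the gene's strand, with every CG dinucleotide in capitals. For *Maged2*, which has 4 annotated starts, the most upstream window and an inner one are given.
*Maged1* promoter, chrX:94541976-94542275, minus strand: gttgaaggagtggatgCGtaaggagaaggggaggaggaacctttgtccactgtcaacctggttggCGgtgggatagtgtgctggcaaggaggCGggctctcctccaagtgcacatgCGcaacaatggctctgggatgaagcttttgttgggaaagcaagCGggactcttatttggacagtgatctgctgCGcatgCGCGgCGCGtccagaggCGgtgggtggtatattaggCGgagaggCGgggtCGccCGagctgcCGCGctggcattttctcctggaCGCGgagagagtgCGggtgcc
*Maged2* upstream promoter, chrX:150814296-150814595, minus strand: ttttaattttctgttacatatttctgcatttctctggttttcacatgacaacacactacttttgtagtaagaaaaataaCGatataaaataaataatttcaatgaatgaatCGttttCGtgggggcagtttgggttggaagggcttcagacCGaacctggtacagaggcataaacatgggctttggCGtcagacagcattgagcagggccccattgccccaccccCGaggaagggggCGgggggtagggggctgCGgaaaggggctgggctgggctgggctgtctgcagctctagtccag
*Maged2* inner promoter, chrX:150812953-150813252, minus strand: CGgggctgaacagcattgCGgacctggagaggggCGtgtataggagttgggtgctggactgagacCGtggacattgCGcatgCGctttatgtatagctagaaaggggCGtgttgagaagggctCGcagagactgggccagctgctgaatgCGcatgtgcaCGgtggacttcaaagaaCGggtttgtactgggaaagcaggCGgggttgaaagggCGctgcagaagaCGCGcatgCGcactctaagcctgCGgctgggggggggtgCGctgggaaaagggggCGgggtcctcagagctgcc
*Mageh1* promoter, chrX:153037514-153037813, minus strand: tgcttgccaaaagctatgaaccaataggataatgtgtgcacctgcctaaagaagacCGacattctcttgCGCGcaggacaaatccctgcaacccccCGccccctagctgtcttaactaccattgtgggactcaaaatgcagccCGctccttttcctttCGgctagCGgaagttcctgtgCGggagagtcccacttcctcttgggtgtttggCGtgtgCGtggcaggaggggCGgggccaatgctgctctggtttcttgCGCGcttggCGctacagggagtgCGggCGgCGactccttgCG
*Magee1* promoter, chrX:105120128-105120427, plus strand: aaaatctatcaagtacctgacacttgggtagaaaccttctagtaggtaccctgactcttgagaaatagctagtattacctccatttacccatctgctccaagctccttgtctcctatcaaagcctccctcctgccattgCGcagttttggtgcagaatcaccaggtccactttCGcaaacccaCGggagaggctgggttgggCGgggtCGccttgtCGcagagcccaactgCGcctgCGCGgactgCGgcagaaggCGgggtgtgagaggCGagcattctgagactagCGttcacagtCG

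The *Maged1* window held 20 CG dinucleotides, *Mageh1* 18 and *Magee1* 14. The 4 *Maged2* windows differed, with 8 in the upstream one, 19 in the inner one shown and 9 and 19 in the others. The median over all 32817 promoter windows was 7, as it was over the 1220 X‐linked ones, and 73.5% of all windows had fewer than *Maged1*. The 6 letters TGCGCA, the core recognised by NRF1, were found on either strand in the *Maged1*, inner *Maged2* and *Magee1* windows and not in that of *Mageh1*, against 7.75% of all windows. These letters hold a CG, and that share was not matched for CG content. Only the upstream *Maged2* window held TATAAA (13.6% of all windows), and only *Mageh1* held CCAAT (37.4% of all windows). The letters GGGCGG, known as the GC box, were in every window of the 4 genes except that of *Maged1* (35.6% of all windows). A match is a description of the letters and not of a bound site.

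In the GENCODE vM21 annotation of GRCm38, *Maged1* (ENSMUSG00000025151.16) lies at chrX:94535474-94542143, *Maged2* (ENSMUSG00000025268.15) at chrX:150806370-150814345 and *Mageh1* (ENSMUSG00000047238.4) at chrX:153036166-153037575, all on the minus strand. *Magee1* (ENSMUSG00000031227.8) lies at chrX:105120378-105123927 on the plus strand. The start of *Magee1* is 1.64 Mb from that of *Xist* and that of *Maged1* is 8.94 Mb away on the other side. *Maged2* and *Mageh1* lie far off, at 47.3 and 49.6 Mb. No exon of another annotated gene overlapped an exon of these 4 genes. Only *Maged2* had transcript stretches of 150 bases or more that matched another gene at 80% identity or above. That gene was *Tro*, a family member that lies beside it, with a longest match of 714 bases at 81.7% and a highest identity of 93.6%. The study's mapping allowed few mismatches per read, and whether any read was assigned to the wrong one of these genes was not tested.

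The libraries held between 31337490 and 41240470 counts, and no pair was identical. *Xist*, the gene that DOX switches on, was at 2.49 to 8.27 CPM (counts relative to the size of the library, which was adjusted with TMM factors from expressed autosomal genes) in the 6 noDOX libraries and at 568 to 1789 CPM in the 6 DOX libraries. The deposited names of the replicate 1 noDOX libraries carry the word DOX, whereas their labels say noDOX and their *Xist* level was 2.49, 6.37 and 2.54 CPM in *Xist* FL, ΔA and ΔB+C. Replicate 2 of *Xist* ΔB+C DOX was made from 100 ng of RNA and the others from 1000 ng. The ES cell genes *Pou5f1* and *Sox2* were high everywhere, at 1150 CPM or more and 282 CPM or more. Of the other pluripotency markers listed, *Dppa5a* was at 309 to 898 CPM and *Tdgf1* at 417 to 865 CPM. *Nanog* was at 86.4 to 203 CPM, *Zfp42* at 69.1 to 329 CPM, *Esrrb* at 18.1 to 118 CPM and *Klf4* at 4.65 to 16.9 CPM. The 4 mesendoderm markers summed to 176 to 241 CPM in *Xist* FL noDOX and 36.8 to 133 CPM in *Xist* FL DOX. For the ΔB+C line these sums were 109 to 202 and 39.2 to 133 CPM, and for the ΔA line 42.2 to 48.6 and 43.1 to 63.5 CPM. Of these markers only *Eomes* passed the test of DOX against noDOX, as lower in *Xist* FL (log2 (fold change) -1.60) and *Xist* ΔB+C (-1.39). The epiblast genes *Fgf5* (-1.49) and *Lef1* (-0.70) were lower with DOX in *Xist* ΔB+C. Without DOX, 2 of the 4 mesendoderm markers were called lower in *Xist* ΔA than in *Xist* FL and *Lef1* was called higher (0.56). In that comparison 9.85% of all genes tested were called. None of the 8 pluripotency, 6 primitive endoderm, 4 neural or 4 fibroblast markers that were tested passed with DOX in any line, and the fibroblast marker *Postn* stayed at or under 0.321 CPM. The part of these shifts in the *Mage* results was not tested.

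DOX lowered 3 of the 4 *Mage* genes in the full‐length line, the same 3 in the ΔB+C line, and none that the test called in *Xist* ΔA. The genes were *Maged1*, *Maged2* and *Mageh1*, which fell to between 27.0% and 47.5% of their noDOX means. *Magee1* was at 58.0% to 67.2% of its noDOX mean in the 3 lines without passing the test in any. The fit covered all 13191 genes that reached 1 CPM in 6 libraries or more and used edgeR's quasi‐likelihood test, with Benjamini–Hochberg adjustment over all of them and a threshold of 0.05, and all 4 *Mage* genes were among those tested. Of all genes tested, 1.1% were called lower with *Xist* FL and 2.15% with *Xist* ΔB+C. Among the 464 X‐linked genes apart from *Xist* the shares were 26.9% and 34.3%. With this fit 3 of 4 thus stood above the X‐linked background in both lines, a comparison of counts and not a test. That background depended on the method. DESeq2 called 253 of the 464 lower with full‐length RNA and 241 with ΔB+C RNA, beside 3 of the 4 *Mage* genes each time. With the replicate number as a term these counts were 375 and 349, beside all 4 *Mage* genes. The limma‐voom counts, 128 and 157 beside 3 of the 4, were close to those of the edgeR fit. In *Xist* ΔA the edgeR fit called 0% of all genes tested and 0% of X‐linked genes lower. There 1 of the 4 genes, *Magee1*, was at an unadjusted p under 0.05, as were 150 of all 13191 genes. DESeq2 and limma‐voom also called 0 of the 4. The libraries are from mixed cultures, in which fewer cells with a gene switched on and less RNA in every cell cannot be told apart. The study counted, by RNA FISH, the share of DOX cells with an *Xist*‐coated X chromosome. That share was highest in *Xist* ΔB+C and lowest in *Xist* FL, and the values here were not adjusted for it.

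**Figure D1:**
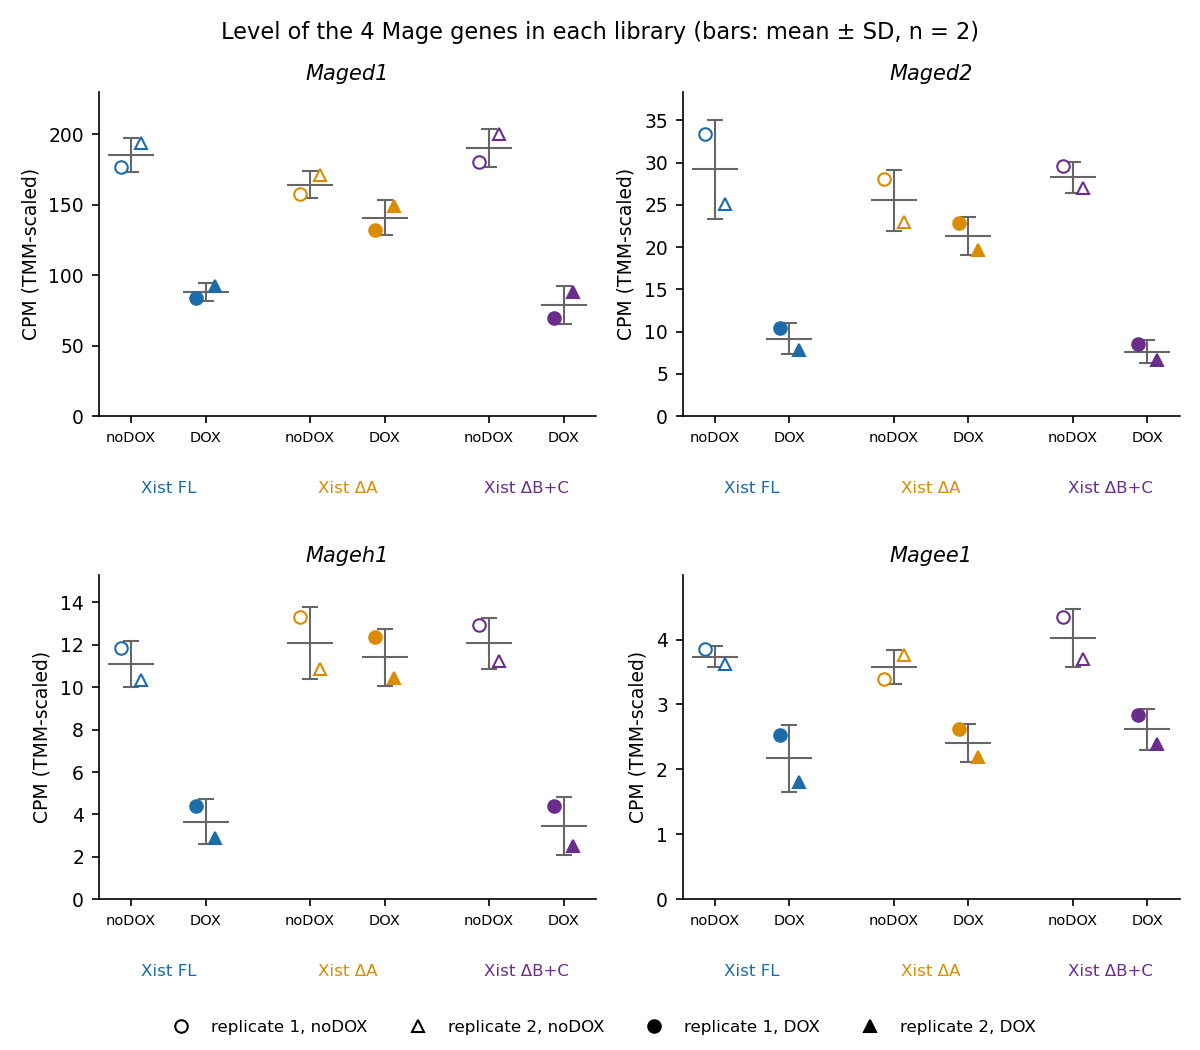
Level of each *Mage* gene (CPM, linear axis from 0) in the 12 libraries, with circles for replicate 1, triangles for replicate 2, open symbols for noDOX and filled ones for DOX; the bars are the mean ± SD of 2 libraries. *Maged1*, *Maged2* and *Mageh1* with DOX sit far under noDOX in *Xist* FL and *Xist* ΔB+C, whereas in *Xist* ΔA both conditions are near each other.

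*Maged1* encodes a protein also known as NRAGE or Dlxin‐1, which binds the neurotrophin receptor p75 and the ligase PJA1. It was the most abundant of the 4 genes, at 176.6 and 193.6 CPM (replicates 1 and 2) in *Xist* FL noDOX and 83.57 and 92.31 CPM in *Xist* FL DOX. The ΔB+C line had it at 180.5 and 199.8 CPM without DOX and at 69.57 and 88.36 CPM with it. In both lines every DOX library was thus far below every noDOX library. In *Xist* ΔA it was at 157.3 and 170.7 CPM without DOX and at 131.9 and 149.3 CPM with it. The ΔA conditions did not overlap either, but the nearest libraries, at 157.3 and 149.3 CPM, were close. The log2 (fold change) was -1.07 (SE 0.13, adjusted p = 0.00956) in *Xist* FL and -1.27 (SE 0.13, adjusted p = 0.00293) in *Xist* ΔB+C. In *Xist* ΔA it was -0.22 (SE 0.13, adjusted p = 1), with a 95% interval from -0.51 to 0.07. *Maged1* made up 77.7% to 88.4% of the summed CPM of the 4 genes, and that sum went from 229.2 ± 4.96 to 102.9 ± 2.73 CPM with DOX in the full‐length line (SD, n = 2), from 234.5 ± 10.1 to 92.68 ± 10.3 CPM in the ΔB+C line and from 205.2 ± 4.40 to 175.7 ± 8.38 CPM in the ΔA line.

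*Maged2* encodes a protein needed for salt transport in the fetal kidney, and its mutation causes a transient antenatal form of Bartter syndrome. It was at 33.36 and 25.09 CPM in *Xist* FL noDOX and at 10.49 and 7.857 CPM with DOX. The ΔB+C line was at 29.60 and 27.00 CPM without DOX and at 8.602 and 6.683 CPM with it. It kept 31.4% of the noDOX mean in the full‐length line and 27.0% in the ΔB+C line, the lowest of the 4 genes by the means although *Mageh1* kept less in replicate 2 of both lines. The log2 (fold change) was -1.67 (SE 0.21, adjusted p = 0.0102) and -1.89 (SE 0.21, adjusted p = 0.00436). In *Xist* ΔA it was at 28.09 and 23.00 CPM without DOX and at 22.88 and 19.71 CPM with it. The ΔA conditions almost met, at 23.00 and 22.88 CPM, and the log2 (fold change) of -0.26 (SE 0.20, adjusted p = 1) had a 95% interval from -0.72 to 0.20.

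*Mageh1* is a short gene whose protein holds little more than the MAGE homology domain. It was at 11.87 and 10.34 CPM in *Xist* FL noDOX and at 4.400 and 2.898 CPM with DOX. For ΔB+C the values were 12.92 and 11.23 CPM without DOX and 4.414 and 2.490 CPM with it. The log2 (fold change) was -1.61 (SE 0.29, adjusted p = 0.0398) and -1.80 (SE 0.29, adjusted p = 0.0170), or 32.9% and 28.6% of the noDOX mean left. In *Xist* ΔA the conditions overlapped, at 13.30 and 10.87 CPM without DOX and 12.35 and 10.46 CPM with it. There the log2 (fold change) was -0.08 (SE 0.28, adjusted p = 1, 95% interval from -0.71 to 0.54). The replicates were wide apart in the DOX groups of *Xist* FL and *Xist* ΔB+C, where 79 to 176 counts stood behind each *Mageh1* value.

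*Magee1* encodes a large protein with a pair of MAGE homology domains that binds dystrobrevin in muscle and brain. It was the least abundant of the 4 genes, with 69 to 164 counts per library. It was at 3.850 and 3.624 CPM in *Xist* FL noDOX and 2.535 and 1.801 CPM with DOX. The ΔB+C cells had it at 4.343 and 3.705 CPM and then 2.834 and 2.396 CPM. The ΔA cells had it at 3.393 and 3.766 CPM and then 2.615 and 2.197 CPM. The DOX libraries were under the noDOX libraries in each line, including *Xist* ΔA. The log2 (fold change) was -0.79 (SE 0.22, adjusted p = 0.162) for the full‐length line, -0.62 (SE 0.22, adjusted p = 0.174) for ΔB+C and -0.57 (SE 0.22, adjusted p = 1) for ΔA. Unlike the other members it had a ΔA interval, from -1.07 to -0.07 without adjustment, that did not reach 0. Counting error alone was 7.81% to 12% of each *Magee1* value.

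**Figure D2:**
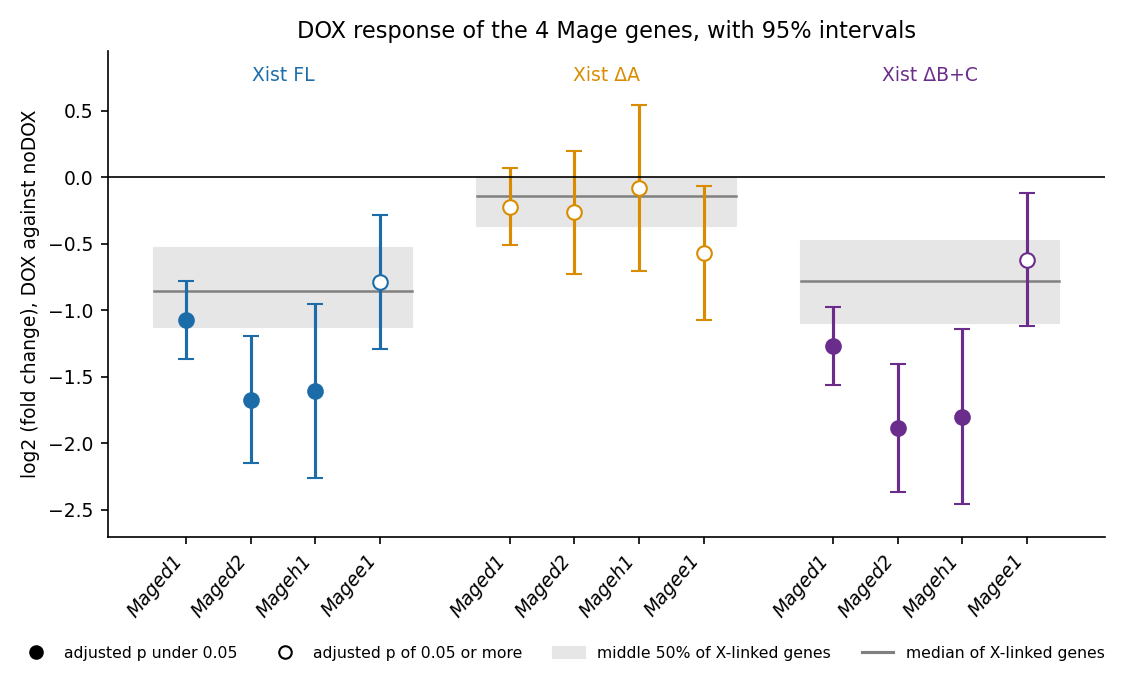
DOX response of the 4 *Mage* genes in each line as log2 (fold change), with 95% intervals from the fit across all genes; filled points have an adjusted p under 0.05, the grey band is the middle 50% of the 464 X‐linked genes and the grey line their median. *Maged2* and *Mageh1* lie below the band in the full‐length and ΔB+C lines, *Maged1* in ΔB+C alone, and *Magee1* lies inside it in both and below it in *Xist* ΔA.

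Per kilobase of exon, so that genes can be compared, *Maged1* led in *Xist* FL noDOX with 42.55 ± 2.77 CPM per kb (SD, n = 2). *Maged2*, at 9.02 ± 1.81, and *Mageh1*, at 7.88 ± 0.77 CPM per kb, differed by less than their spread, and *Magee1* was last at 1.05 ± 0.05. With DOX the same line had 20.21 ± 1.42, 2.83 ± 0.58, 2.59 ± 0.75 and 0.61 ± 0.15 CPM per kb in the same order. The level of *Maged2* and that of *Mageh1* again could not be separated. In *Xist* ΔB+C DOX these were 2.36 ± 0.42 and 2.45 ± 0.97 CPM per kb, so that the order of this pair of genes there was reversed within the spread.

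Set against other X‐linked genes, the 4 genes lay from the low end to somewhat past the middle of the responses in *Xist* FL and *Xist* ΔB+C. In *Xist* FL the median log2 (fold change) was -0.85 over the 464 X‐linked genes, -0.0111 over all genes tested and -1.34 over the 4 *Mage* genes. In *Xist* ΔB+C these medians were -0.78, -0.0044 and -1.53, and in *Xist* ΔA they were -0.14, -0.0015 and -0.24. Counted from the lowest of the 464, *Maged2* had rank 35 in *Xist* FL and rank 13 in *Xist* ΔB+C. *Mageh1* had ranks 40 and 17, and *Maged1* ranks 136 and 75. *Magee1* was near the middle, with 55.6% and 64% of X‐linked genes lower than it. In *Xist* ΔA the order was another, and *Magee1* was then the member with the lowest value, with 14% of X‐linked genes lower.

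The calls in *Xist* FL rested on both replicates. Without the DOX replicate 2 library none of the 4 genes passed (adjusted p = 0.114 for *Maged1*, 0.148 for *Maged2* and 0.345 for *Mageh1*), and without any other *Xist* FL library 1 gene did. In *Xist* ΔB+C, leaving out the low‐input DOX library gave log2 (fold change) -1.45 for *Maged1* (adjusted p = 0.0117), -1.72 for *Maged2* (0.0463) and -1.45 for *Mageh1* (0.0953), and *Mageh1* was also lost without noDOX replicate 1 (0.0995) or replicate 2 (0.0817).

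The lines were then compared by the difference of their responses, in the same fit. From *Xist* FL to *Xist* ΔA the log2 (fold change) differed by 0.85 (SE 0.18, adjusted p = 0.239) for *Maged1*, 1.41 (SE 0.29, adjusted p = 0.218) for *Maged2* and 1.52 (SE 0.40, adjusted p = 0.364) for *Mageh1*. For *Magee1* it differed by 0.22 (SE 0.31, adjusted p = 0.932). Thus 0 of the 4 genes passed, as did 0% of all genes tested. At an unadjusted p under 0.05 were 3 of the 4, and 983 of all 13191 genes. X‐linked genes as a whole also differed in this direction. The median difference was 0.63 over the 464 X‐linked genes, of which 31 had a negative value, and 1.13 over the 4 *Mage* genes. DESeq2 called 3 of the 4, and 50 of all genes as lower and 95 as higher, while limma‐voom called 0 of the 4. The 95% intervals without adjustment lay above 0 for *Maged1* (0.44 to 1.26), *Maged2* (0.75 to 2.07) and *Mageh1* (0.63 to 2.42). That of *Magee1* ran from -0.49 to 0.93. With the replicate number as a term in edgeR, *Maged1*, *Maged2* and *Mageh1* passed (adjusted p = 0.00187, 0.00167 and 0.00454). That fit called 177 of all genes as lower and 261 as higher, and the labels do not state what a replicate number shares.

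From *Xist* ΔA to *Xist* ΔB+C the differences were -1.05 (SE 0.18, adjusted p = 0.0746) for *Maged1*, -1.62 (SE 0.29, adjusted p = 0.0791) for *Maged2*, -1.71 (SE 0.40, adjusted p = 0.145) for *Mageh1* and -0.05 (SE 0.31, adjusted p = 0.974) for *Magee1*. Again 0 of the 4 passed, against 0.19% of all genes tested and 15 of the 464 X‐linked genes. The median difference was -0.57 over the X‐linked genes, of which 411 had a negative value, and -1.335 over the 4 *Mage* genes. At an unadjusted p under 0.05 were 3 of the 4, and 1591 of all genes. DESeq2 called 3 of the 4, and 220 of all genes as lower and 162 as higher, while limma‐voom called 0 of the 4. Of those 220 genes, 106 were X‐linked. With the replicate number as a term in edgeR, *Maged1*, *Maged2* and *Mageh1* passed (adjusted p = 0.00043, 0.00043 and 0.00152). That fit called 650 of all genes as lower, 192 of them X‐linked, and 567 as higher. *Xist* ΔB+C and *Xist* FL differed by -0.19, -0.21, -0.19 and 0.17 for *Maged1*, *Maged2*, *Mageh1* and *Magee1*. Here 0 of 4 passed, against 0% of all genes tested, with 0 at an unadjusted p under 0.05 and 0 called by DESeq2 or limma‐voom. The intervals were wide, from -0.61 to 0.22 for *Maged1* and from -1.10 to 0.71 for *Mageh1*, so responses that differ by less could not be seen with 2 replicates. These 3 differences share libraries with each other.

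Without DOX the test called no difference between the 3 lines for the 4 genes. Between *Xist* ΔA and *Xist* FL 0 of 4 passed, against 9.85% of all genes tested, and between *Xist* ΔB+C and *Xist* FL 0 of 4, against 0.0227%. Between *Xist* ΔB+C and *Xist* ΔA 0 of 4 passed, against 6.69%. In each of the 3 comparisons 0 of the 4 were at an unadjusted p under 0.05 and DESeq2 and limma‐voom called 0. The widest gap was that of *Maged1*, 0.21 higher in *Xist* ΔB+C than in *Xist* ΔA (95% interval from -0.08 to 0.50). Intervals were wider for *Mageh1*, as from -0.50 to 0.75 between *Xist* ΔA and *Xist* FL, so smaller differences in level could not be seen.

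**Figure D3:**
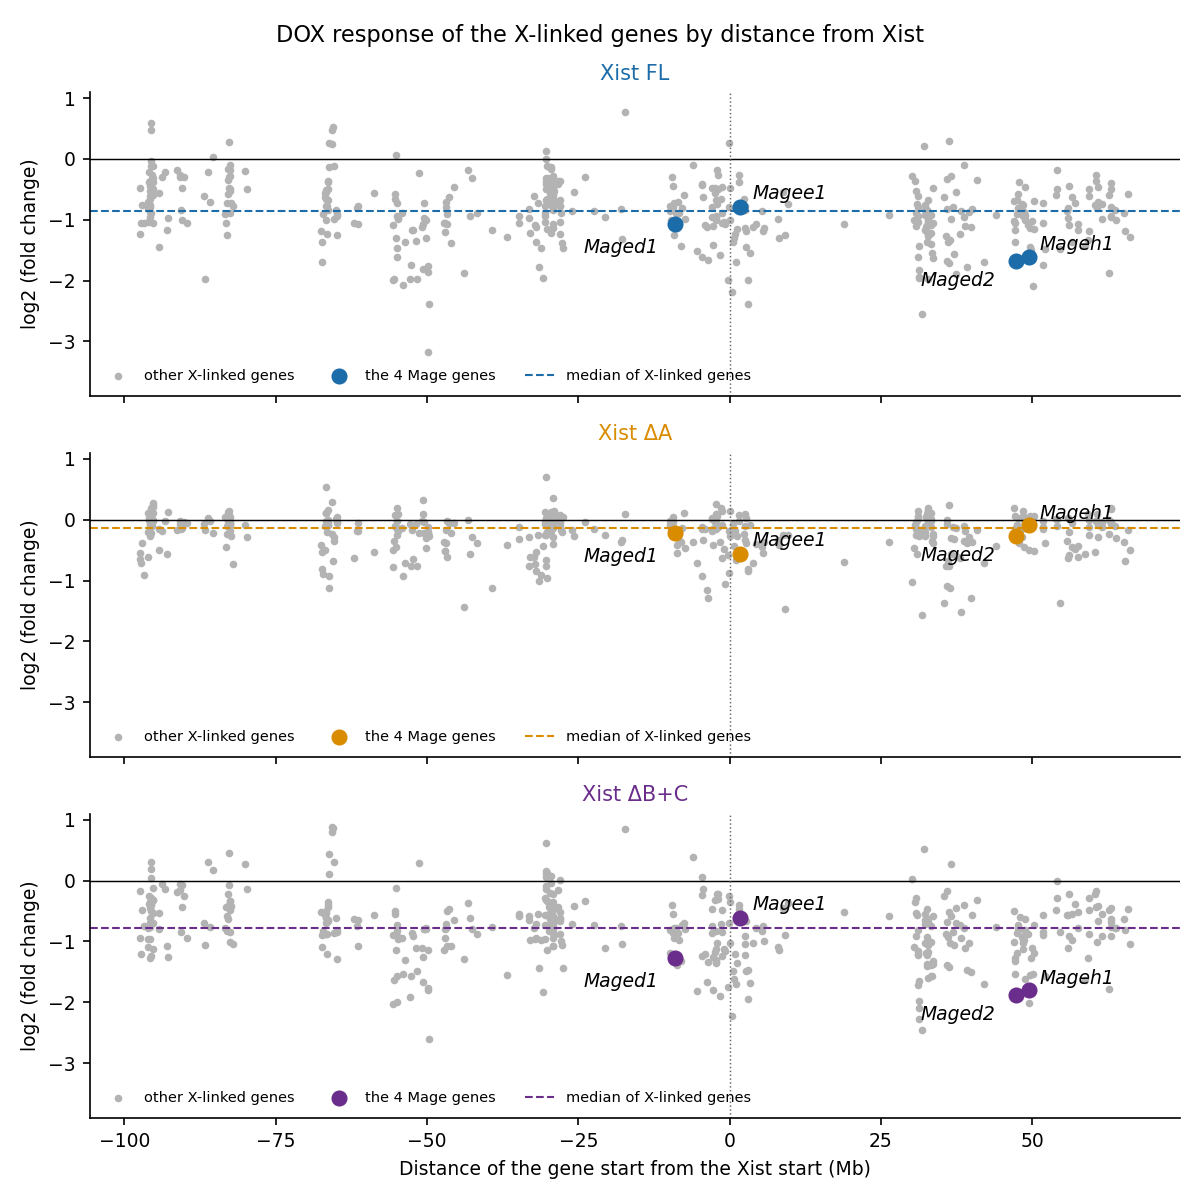
DOX response (log2 (fold change)) of each X‐linked gene tested against the distance of its start from the *Xist* start in Mb, 1 panel per line; grey points are other genes, coloured points the 4 *Mage* genes, and the dashed line is the median of the 464 X‐linked genes. *Maged2* and *Mageh1*, at 47.3 and 49.6 Mb, are among the lowest points in *Xist* FL and *Xist* ΔB+C, and *Magee1*, at 1.64 Mb, is near the dashed line.

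The genes around the members, taken as the 3 nearest tested genes on each side in the order of their lower coordinates, all had negative values with DOX in both the full‐length and the ΔB+C line. Of the 24, the test called 8 as lower with *Xist* FL RNA, 15 with ΔB+C RNA and 0 with ΔA RNA, beside shares of 26.9%, 34.3% and 0% among X‐linked genes. Around *Maged1* the log2 (fold change) in *Xist* FL was -0.45 for *Eif2s3x*, which is known to escape X inactivation, -0.72 for *Apoo*, -0.89 for *Gspt2*, -1.04 for *Zxda*, -1.14 for *Zxdb* and -1.25 for *Klhl15*, with none called. Around *Maged2* it was -0.57 for *Tsr2*, -0.67 for *Fgd1*, -0.91 for *Gnl3l*, -1.02 for *Alas2*, -1.16 for *Pfkfb1* and -1.36 for *Tro*, and *Maged2* itself was lower than all 6. Around *Mageh1* it was -1.002 for *Gpr173*, -1.09 for *Shroom2*, -1.14 for *Foxr2*, -1.46 for *Rragb*, -1.49 for *Klf8* and -1.60 for *Usp51*, a stretch with a median of -1.30. Around *Magee1* it was -0.26 for *5530601H04Rik*, -0.38 for *Pbdc1*, -0.65 for *Atrx*, -0.77 for *Cox7b*, -1.13 for *Magt1* and -1.15 for *Zdhhc15*, with a median of -0.71 and none called. In *Xist* ΔB+C the medians of the 4 stretches were -0.86, -1.10, -1.58 and -0.82 in the same order, and in *Xist* ΔA they were between -0.22 and -0.06.

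Of 29 further family genes listed, 21 were in the files and 5 passed the filter. The other 16 of these were at 0.534 CPM or less on average, and all but *Mageb3* are X‐linked genes or gene copies of the *Magea*, *Mageb* and *Magee2* kind. *Tro* encodes trophinin, which is also called MAGED3 and lies beside *Maged2*. It went from 91.22 ± 5.21 to 35.49 ± 4.04 CPM (SD, n = 2) with DOX in the full‐length line, from 90.63 ± 3.25 to 31.29 ± 4.17 CPM in the ΔB+C line and from 93.61 ± 6.48 to 75.18 ± 5.27 CPM in the ΔA line. Its log2 (fold change) was -1.36 (adjusted p = 0.00292), -1.53 (adjusted p = 0.00111) and -0.32 (adjusted p = 1), which is a pattern of values much like that of its neighbour *Maged2*. *Mageb16*, an X‐linked cancer‐testis type gene, was not called in any line, with -0.29, -0.34 and -0.04 in *Xist* FL, ΔB+C and ΔA. It was instead higher in *Xist* ΔA noDOX, at 35.61 ± 1.86 CPM, than in *Xist* FL noDOX, at 23.31 ± 0.82 CPM (adjusted p = 0.0202).

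The 3 listed autosomal family genes that passed the filter, all on chromosome 7, are not linked to *Xist*. *Ndn* (necdin), an imprinted gene of the Prader‐Willi region, nevertheless passed the test as lower in *Xist* FL, from 26.92 ± 1.34 to 17.05 ± 0.08 CPM (log2 (fold change) -0.66, adjusted p = 0.0425). It did so in *Xist* ΔB+C as well, from 28.24 ± 1.37 to 16.76 ± 0.11 CPM (-0.75, adjusted p = 0.0170), and in *Xist* ΔA it was at 34.44 ± 4.66 and 29.86 ± 2.72 CPM (-0.21, adjusted p = 1). The *Xist* FL call for *Ndn* was lost without any of the 4 *Xist* FL libraries (adjusted p between 0.14 and 0.345), with -0.71 to -0.60 left. *Magel2*, its imprinted neighbour, was not called with DOX (-0.54, -0.45 and -0.24 in *Xist* FL, ΔB+C and ΔA) but was higher in *Xist* ΔA noDOX, at 44.13 ± 2.52 CPM, than in *Xist* FL noDOX, at 16.01 ± 4.62 CPM (adjusted p = 0.0026). *Nsmce3*, a subunit of the SMC5/6 complex, had -0.13, -0.25 and 0.07 and was not called. *Magef1*, on chromosome 16, was not in the list and was looked up after the other values were seen. It averaged 1.52 CPM and was not called either, with -0.24 (adjusted p = 0.791), 0.46 (adjusted p = 0.491) and 0.16 (adjusted p = 1).

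**Figure D4:**
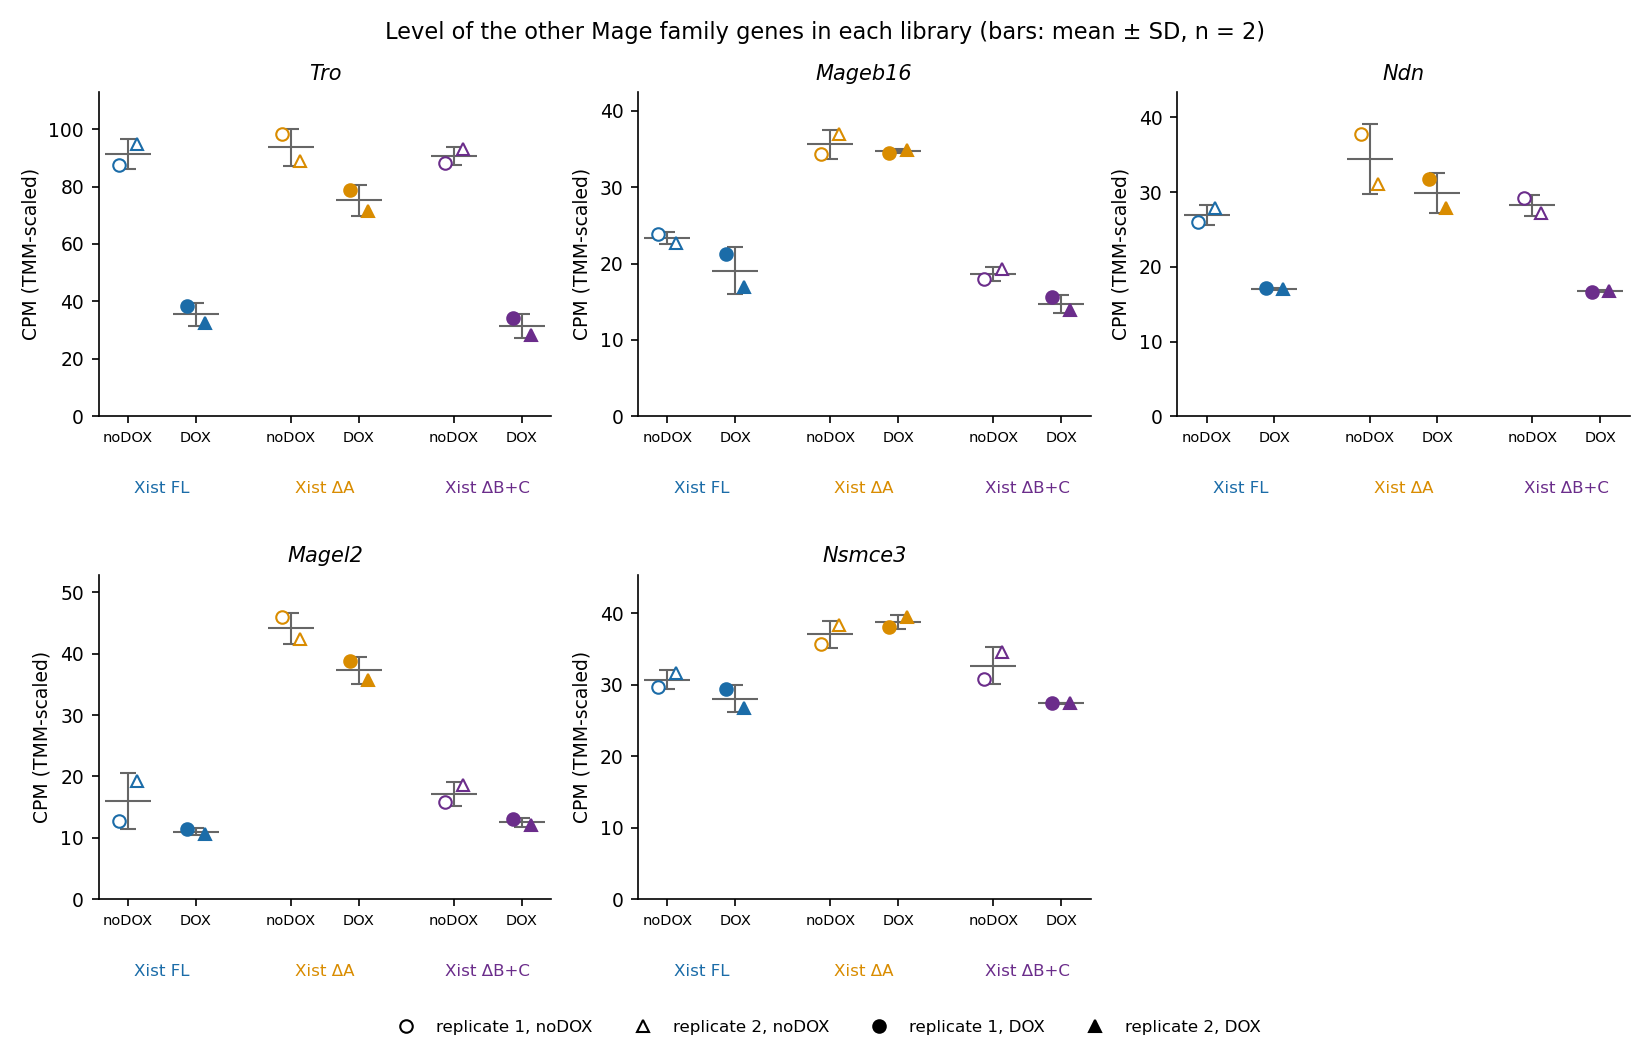
Level (CPM, linear axis from 0) of the 5 other listed *Mage* family genes that passed the filter, drawn as for the 4 members, with mean ± SD of 2 libraries. *Tro* falls to between 28.3 and 38.4 CPM with DOX in *Xist* FL and *Xist* ΔB+C, *Ndn* to about 17 CPM, and *Mageb16* and *Magel2* stand higher in *Xist* ΔA in both conditions.

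Among 24 genes whose proteins are known to work with MAGE proteins, all of which were tested, the test called 1 lower with FL, 2 with ΔB+C and 0 with ΔA, and 0 higher in any line. Of all genes tested, 1.1%, 2.15% and 0% were called lower. *Pja1*, the X‐linked ligase that MAGED1 binds, had a log2 (fold change) of -1.09 (adjusted p = 0.00595), -1.21 (adjusted p = 0.00244) and -0.15 (adjusted p = 1) in *Xist* FL, ΔB+C and ΔA, where 26.9%, 34.3% and 0% of X‐linked genes were called. *Xiap*, the other X‐linked one and an inhibitor of caspases, had -0.77 (adjusted p = 0.232), -0.65 (adjusted p = 0.221) and -0.19 (adjusted p = 1). Of the 22 autosomal ones only the homeobox gene *Msx1* was called, in *Xist* ΔB+C (-1.20, adjusted p = 0.0453). The median of these 22 was -0.07, -0.09 and 0.0035 in *Xist* FL, ΔB+C and ΔA.

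The genes whose levels over the 12 libraries were most like those of each member were all X‐linked. For *Maged1* they were *Pja1* (Pearson's r of log2(CPM + 1) 0.984, Spearman's rho 0.944), *Pdk3* (0.974 and 0.923) and *Enox2* (0.971 and 0.965). For *Maged2* they were *Pfkfb1* (0.990 and 0.986), which lies beyond *Tro*, *Bhlhb9* (0.988 and 0.944) and *Morf4l2* (0.986 and 0.874). For *Mageh1* they were *Smc1a* (0.996 and 0.909), *Ubqln2* (0.995 and 0.951) and *Zfp275* (0.992 and 0.916). For *Magee1* they were *Hmgb3* (0.936 and 0.902), *Ids* (0.935 and 0.916) and *Fgf13* (0.934 and 0.909), whose value with ΔA RNA was -1.43 (log2 (fold change), adjusted p = 1). Between members, *Maged2* and *Mageh1* were most alike by Pearson's r (0.975, with a rho of 0.853) and *Mageh1* and *Magee1* least (0.70, with a rho of 0.65), whereas the lowest rho was that of *Maged1* and *Mageh1* (0.573). The 12 points share the 6 groups and the 2 replicate numbers. These values thus describe the groups' pattern together with any shift between replicates, and they carry no test.

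The replicates of a group differed in the same direction from group to group. *Maged1* was higher in replicate 2 in all 6 groups, by 0.118 to 0.345 on the log2 scale. *Maged2* and *Mageh1* were lower in replicate 2 in all 6, by values from -0.417 to -0.133 and from -0.826 to -0.199. *Magee1* was lower in replicate 2 in 5 of 6 groups. Taken within a replicate number, the log2 ratio of DOX to noDOX for *Maged1* was -1.08 and -1.07 in *Xist* FL, and for *Maged2* it was -1.67 and -1.67, so that in this line the replicates gave nearly the same response although their levels differed. In *Xist* ΔB+C the replicates were less alike, with -1.38 and -1.18 for *Maged1* and -1.78 and -2.02 for *Maged2*. For *Mageh1* the ratios were -1.43 and -1.83 in *Xist* FL and -1.55 and -2.17 in *Xist* ΔB+C, and replicate 2 was lower in both. As a result the ratio of *Maged1* to *Mageh1* within a library ran from 14.0 to 18.7 in *Xist* FL and *Xist* ΔB+C noDOX and from 15.8 to 35.5 with DOX.

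**Figure D5:**
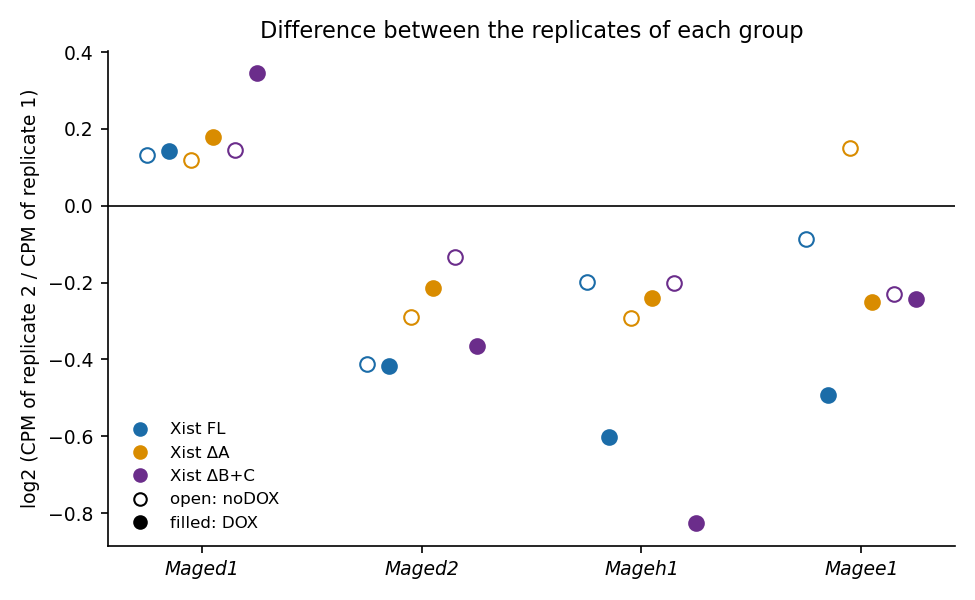
Difference between the replicates of each group for the 4 *Mage* genes, as the log2 of the CPM of replicate 2 over that of replicate 1; each point is 1 group, coloured by line, open for noDOX and filled for DOX. All 6 points are above 0 for *Maged1* and below 0 for *Maged2* and *Mageh1*, with the lowest at -0.826.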

How the data were processed

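RNA‐seq of 12 libraries from 6 groups was analysed. The authors mapped read pairs to mm10 with TopHat2 2.1.0 and the refFlat annotation and counted pairs over exons with featureCounts 1.5.1. The deposited values are these counts per gene, without normalization and without pooling of replicates. A strand option was not given in the sources used here, so sense and antisense reads may be counted together. Groups came from the labels.

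Genes reaching 1 CPM in 6 libraries or more were kept (13191, of which 464 X‐linked apart from *Xist* and 12721 autosomal). TMM factors from expressed autosomal genes were 0.981 to 1.02. Genes were tested with edgeR 4.0.16 in R 4.3.3 (glmQLFit with robust dispersions, 6 group means, 6 residual degrees of freedom, Benjamini–Hochberg over all genes tested), with DESeq2 1.42.0 and limma‐voom 3.58.1 as alternatives. SE is the size of the log2 (fold change) over the root of the quasi‐likelihood F, and intervals use the t distribution with the fit's degrees of freedom. Intervals carry the spread between libraries that the fit estimated, whereas counting errors cover only the sampling of reads. PCR copies are not independent molecules. Transcripts were matched with BLAST 2.17.0.

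Named genes were the members, the listed family genes past the filter, the X‐linked or called partners, the 3 nearest tested genes on each side and the 3 most alike. The members and lists were chosen with earlier results of these data known.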

Additional observations from a re-analysis of the deposited data

Results flagged for a closer look

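Among the family, partner and neighbouring genes named here, a test of the difference between lines set apart 3, and *Xist*. All passed from *Xist* ΔA to *Xist* ΔB+C, where 25 of all 13191 genes were called, 15 of them among the 464 X‐linked genes. *Pdk3*, named above as most like *Maged1*, passed there too (-1.11, SE 0.12, adjusted p = 0.0243, edgeR). From *Xist* ΔA to *Xist* ΔB+C the log2 (fold change) with DOX differed by -1.22 (SE 0.17, adjusted p = 0.0457, edgeR's quasi‐likelihood test) for *Tro*, the family member beside *Maged2*. It differed by -1.10 (SE 0.11, adjusted p = 0.0243) for *Gnl3l*, another gene near *Maged2*, and by -1.70 (SE 0.19, adjusted p = 0.0243) for *Rragb*, a gene near *Mageh1*. For *Xist* itself the difference was 2.72 (SE 0.32, adjusted p = 0.0277), with a higher level in *Xist* ΔB+C DOX (1472 ± 448 CPM, SD, n = 2) than in *Xist* ΔA DOX (647.2 ± 112 CPM) and a lower one without DOX (2.516 ± 0.0368 against 7.322 ± 1.35 CPM, adjusted p = 0.00974).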

How the results depend on the processing

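Over the alternatives, 481 values of single *Mage* genes kept their direction and side of the threshold, 18 lost a call, 17 gained a call and 27 changed sign, none of which was called. All losses were in *Xist* FL or *Xist* ΔB+C with DOX, either without 1 library or with only the libraries of the line compared, where 0 genes were called in both lines (fewer libraries share the spread). Without 1 library at a time, 0 to 1 of the 4 genes was called in *Xist* FL. With the replicate number as a term (replicate block), 3 genes differed from *Xist* FL to *Xist* ΔA and 3 from *Xist* ΔA to *Xist* ΔB+C, *Magee1* passed in *Xist* FL (-0.79, adjusted p = 0.0207) and *Xist* ΔB+C (-0.62, adjusted p = 0.0373), and 1 gene, *Maged1*, was higher in *Xist* ΔB+C than *Xist* ΔA noDOX (0.21, adjusted p = 0.0399). The labels do not state what a replicate number shares, and with 2 numbers they do not establish pairs, although the difference between replicates 2 and 1 over autosomal genes correlated at 0.404 to 0.838 (mean 0.634) between the 15 pairs of groups. DESeq2 gave 3 and 3 genes for the same differences between lines, and no filter on low counts gave 2 (*Maged1* and *Maged2*) from *Xist* ΔA to *Xist* ΔB+C. The cause of these changes was not tested.

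Of all genes, 145 were called lower in *Xist* FL, against 1101 with the block and 371 with DESeq2, and 283 in *Xist* ΔB+C, against 1581 and 615. For the difference from *Xist* FL to *Xist* ΔA, 0 became 177 lower and 261 higher (block) and 50 and 95 (DESeq2). From *Xist* ΔA to *Xist* ΔB+C, 25 became 650 and 567 (block), 220 and 162 (DESeq2), 31 and 11 (no filter) and 9 and 4 (library totals). Without DOX, 1299 genes between *Xist* ΔA and *Xist* FL became 2247 and 2162 (block) and 1123 and 1035 (DESeq2), 882 between *Xist* ΔB+C and *Xist* ΔA became 1737 and 1965 and 722 and 904, and 3 between *Xist* ΔB+C and *Xist* FL became 51 and 79 and 21 and 44.

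The sign changes were of small values. *Mageh1* between *Xist* ΔB+C and *Xist* ΔA noDOX became 0.0038 (replicate block), 0.0025 (DESeq2), 0.0016 (TMM from all genes), 0.0039 (DESeq2 size factors) and 0.000602 (only these lines), and the *Magee1* difference from *Xist* ΔA to *Xist* ΔB+C became 0.0232 with library totals. Without 1 library, ranges that crossed 0 were as follows. For the difference from *Xist* FL to *Xist* ΔB+C they were -0.43 to 0.0032 (*Maged2*), -0.67 to 0.16 (*Mageh1*) and -0.0607 to 0.43 (*Magee1*). For *Magee1* they were -0.0100 to 0.48 from *Xist* FL to *Xist* ΔA and -0.19 to 0.0885 from *Xist* ΔA to *Xist* ΔB+C. *Mageh1* with DOX in *Xist* ΔA ran from -0.22 to 0.071. Between *Xist* ΔA and *Xist* FL noDOX they were -0.38 to 0.0257 (*Maged2*), -0.0416 to 0.26 (*Mageh1*) and -0.14 to 0.00046 (*Magee1*), between *Xist* ΔB+C and *Xist* FL noDOX -0.0445 to 0.11 (*Maged1*), -0.23 to 0.17 (*Maged2*) and -0.0129 to 0.21 (*Magee1*), and between *Xist* ΔB+C and *Xist* ΔA noDOX -0.14 to 0.15 (*Mageh1*). For *Tro*, the difference from *Xist* ΔA to *Xist* ΔB+C was past the threshold in 9 of 18 alternatives and lost without any library of these lines except *Xist* ΔB+C DOX replicate 1. *Ndn* lost its call in 5 of 14 alternatives in *Xist* FL and 4 of 14 in *Xist* ΔB+C. *Msx1* lost its call in 6 of 14, *Mageb16* between *Xist* ΔA and *Xist* FL in 4 of 14, and *Pja1* in 4 of 14 in *Xist* FL.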
